A study of Mus musculus with 16 samples.

Results

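The 10 genes described here encode the enzymes that make cAMP and the kinase that cAMP switches on: the adenylyl cyclases Adcy3, Adcy6, Adcy7 and Adcy9, the catalytic subunits of protein kinase A (PKA) Prkaca and Prkacb, its regulatory subunits Prkar1a, Prkar2a and Prkar2b, and the PKA inhibitor Pkig. They were taken by gene name from a count table of 54532 genes and all 10 were found. The table came from RNA-seq of 16 libraries of mouse TCF1+CD8+ T cells, which are cultured cells that keep TCF1, the transcription factor of stem-like T cells. Naive CD8+ T cells from spleens of C57BL/6J mice were activated repeatedly over 4 days of culture, left untreated or exposed for 1 h to prostaglandin E2 (PGE2, 100 ng/ml), and then kept for 4 h in low-dose IL-2 (85 U/ml) without or with beads that carry antibodies to CD3 and CD28 (1 bead per cell). This gave 4 groups of 4 replicates: unstimulated untreated, unstimulated with PGE2, stimulated untreated and stimulated with PGE2. All groups received IL-2, so the unstimulated cells were not free of cytokine. The 4 groups address whether PGE2 exposure, stimulation through the T cell receptor, or their combination changed the transcripts of the cAMP machinery. Donor mice were sex-matched and between 6 and 12 weeks old. The labels do not say whether replicates were separate cultures or mice, so p-values measure only the spread between these libraries.

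PGE2 binds the receptors EP2 and EP4 on T cells, which couple to the stimulatory G protein. The activated G protein turns on membrane-bound adenylyl cyclases, and the cAMP that they make binds the regulatory subunits of PKA and frees the catalytic subunits to phosphorylate their targets, among them the transcription factor CREB and the kinase CSK, which restrains signalling from the T cell receptor. Regulatory subunits and the small inhibitor PKIG hold free catalytic subunits in check, anchoring proteins (AKAPs) place the holoenzyme in the cell, and phosphodiesterases break cAMP down.

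CREB binds the sequence TGACGTCA or its shorter core TGACG, so the promoters of the genes were searched for these letters on both strands. The RefSeq promoter table (GRCm38.p6) held 23 start sites for 9 of the 10 genes, and the 250 bases before each start were read. Adcy6 had no entry. The core TGACG was present in 8 of the 23 windows, and 17.8% of all 32851 windows of this length held it. Windows of 1 gene can overlap: those of Prkar1a at chr11:109650612-109650861 and chr11:109650699-109650948 share a TGACG. Prkar1a alone gave 3 of the 8 windows, from 6 starts. The windows are thus not independent, and the difference between the shares was not tested. TGACGTCA, which contains the core, was present in 1 window, a start of Prkar1a, against 1.55% of all windows. The AP-1 motif TGANTCA was found in 1 window (6.75% of all windows) and the NFAT core GGAAA in 17 windows (55.6% of all windows). Below is 1 window each of Adcy7, Prkaca and Prkacb, whose transcripts fell with stimulation, and of Prkar2a, whose transcript rose with it. The window of the Prkar1a start with TGACGTCA is also shown. Adcy7, Prkaca and Prkacb have 3, 2 and 3 starts, and the window shown is the only 1 of each gene with TGACG. Each window is written 5′ to 3′ on the strand of the gene and ends at the base before the start. TGACG, its reverse complement CGTCA or TGACGTCA is in capitals.
Adcy7, chr8:88282742-88282991, plus strand: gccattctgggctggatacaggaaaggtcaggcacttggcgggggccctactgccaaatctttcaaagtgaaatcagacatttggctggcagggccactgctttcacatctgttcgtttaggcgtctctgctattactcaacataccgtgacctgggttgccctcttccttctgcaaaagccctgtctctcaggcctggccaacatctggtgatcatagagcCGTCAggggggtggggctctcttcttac
Prkaca, chr8:83972728-83972977, plus strand: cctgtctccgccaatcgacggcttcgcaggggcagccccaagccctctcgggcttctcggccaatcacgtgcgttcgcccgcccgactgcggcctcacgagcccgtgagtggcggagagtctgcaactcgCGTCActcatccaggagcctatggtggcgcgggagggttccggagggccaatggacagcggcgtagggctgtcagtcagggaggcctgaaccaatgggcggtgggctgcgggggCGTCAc
Prkacb, chr3:146812947-146813196, minus strand: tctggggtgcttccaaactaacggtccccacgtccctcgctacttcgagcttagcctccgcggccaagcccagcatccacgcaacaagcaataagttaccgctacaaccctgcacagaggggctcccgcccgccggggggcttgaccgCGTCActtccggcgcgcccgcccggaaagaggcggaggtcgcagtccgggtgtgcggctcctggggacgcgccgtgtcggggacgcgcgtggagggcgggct
Prkar2a, chr9:108691893-108692142, plus strand: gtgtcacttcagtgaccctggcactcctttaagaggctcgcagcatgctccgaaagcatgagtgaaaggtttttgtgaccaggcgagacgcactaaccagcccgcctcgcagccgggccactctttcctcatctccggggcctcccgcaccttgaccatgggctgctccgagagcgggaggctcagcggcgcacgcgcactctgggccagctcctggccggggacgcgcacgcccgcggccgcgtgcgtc
Prkar1a, chr11:109650699-109650948, plus strand: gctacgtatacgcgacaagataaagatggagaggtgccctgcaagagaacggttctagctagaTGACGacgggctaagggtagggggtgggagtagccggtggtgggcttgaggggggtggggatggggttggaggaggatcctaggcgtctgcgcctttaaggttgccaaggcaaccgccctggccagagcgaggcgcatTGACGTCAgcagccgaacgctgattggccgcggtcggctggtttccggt

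The core lay 28 bases before the Adcy7 start, 102 bases before that of Prkacb, and 120 and 6 bases before that of Prkaca, counted to its first base in reading direction. The Prkar2a window held none of TGACG and TGACGTCA. Nor did the 2 windows of Prkar2b, which fell with stimulation without PGE2, or the 2 windows of Adcy3, which rose. The windows shown were chosen, so they allow no comparison of genes that fell with genes that rose. In the GENCODE M21 annotation, which has the same build, the windows of Adcy7 and Prkar2a lie in introns of longer transcripts of the same genes, that of Prkaca lies outside the gene, and those of Prkacb and Prkar1a overlap annotated exons by 44 and 28 bases. A match describes the letters only, and no binding was measured.

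The genes are spread over the genome (GRCm38, coordinates as in the deposited table). The cyclase genes are Adcy3 at chr12:4133103-4213525 on the plus strand, Adcy6 at chr15:98589973-98610076 on the minus strand, Adcy7 at chr8:88272403-88329962 on the plus strand and Adcy9 at chr16:4287529-4420498 on the minus strand. Prkaca lies at chr8:83972993-83996443 (plus) and Prkacb at chr3:146729574-146812990 (minus). The regulatory subunit genes are Prkar1a at chr11:109649405-109669656 (plus), Prkar2a at chr9:108689314-108750436 (plus) and Prkar2b at chr12:31958476-32061296 (minus), and Pkig lies at chr2:163658386-163726158 (plus). Counts were made over exons, so 1 value per gene covers all its transcripts, which number from 2 for Prkaca to 9 for Pkig in GENCODE M21.

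Summed counts per library ranged from 22678254 to 42950763, with a median of 30211840.5. Mitochondrial genes took 1.43% to 1.77% of the counts. Cells in all libraries carried the markers of CD8+ T cells, with Cd8a at 667 to 1209 CPM (counts scaled to a common library size) and Tcf7, which encodes TCF1, at 289 to 1539.8 CPM. The globin gene Hbb-bs and the platelet genes Pf4 and Ppbp had 0 counts in all 16 libraries. The 7 markers of CD8+ T cells summed to 3347 to 4836 CPM in unstimulated and 2853 to 3337 CPM in stimulated cells. The 5 B cell markers summed to 10.1 to 21.01 CPM in unstimulated and 4.47 to 11.7 CPM in stimulated cells. Both sums moved with stimulation, and their part in the results was not tested. Markers of CD4+ T cells summed to at most 10.2 CPM, of myeloid cells to 0.246 to 0.634 CPM and of red cells and platelets to at most 0.423 CPM over all libraries. Of 3 natural killer cell markers, Klrk1, which activated CD8+ T cells also express, had 46.3 to 135 CPM, while Klrb1c had at most 0.0999 CPM and Ncr1 had 0 counts in all 16 libraries. In such bulk samples, fewer cells of a type and less RNA per cell cannot be told apart. Exons of Adcy3 share 1380 bases (22.1%) with those of Cenpo on the opposite strand, and whether counting used the strand is not stated, so values of Adcy3 are uncertain. Adcy6 shares 605 bases (8.92%) with the antisense gene Gm29331, which had 0 counts in all libraries.

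The genes spanned more than 3 orders of magnitude of level, with Prkar1a highest and Adcy9 lowest in all 4 groups. Levels of different genes are compared in FPKM, which divides by gene length. In unstimulated untreated cells, Prkar1a, the regulatory subunit found in most tissues, had 135, 120.2, 113 and 116 FPKM in replicates 1 to 4. This was 3.58 times the level of Prkacb, a catalytic subunit, at 38.1, 34.3, 32.2 and 30.3 FPKM. Adcy7, a cyclase prominent in immune cells, had 34.1, 34.1, 31.5 and 26.6 FPKM, and its range overlapped that of Prkacb. Below these stood Prkaca, the other catalytic subunit, at 18.6 ± 1.57 FPKM (SD, n = 4), and Prkar2a at 7.10 ± 0.502. Adcy3 (4.12 ± 0.391) and Adcy6 (3.31 ± 0.394) overlapped each other. Pkig (2.09 ± 0.276 FPKM), Prkar2b (1.11 ± 0.119) and Adcy9 (0.0604 ± 0.0104) followed without overlap. PGE2 left this order as it was in unstimulated cells, with Adcy6 then overlapping Pkig and no longer Adcy3.

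Stimulation reordered the list. Prkar2a took the second place in stimulated untreated cells with 17.9 ± 2.83 FPKM, behind Prkar1a at 117.2 ± 10.5. Prkacb (12.7 ± 0.469 FPKM), Prkaca (11.6 ± 1.81) and Adcy7 (10.9 ± 0.996) came next, each overlapping the neighbour in this order. With PGE2 in stimulated cells, Prkar2a at 14.3 ± 3.07 FPKM overlapped Prkaca at 14.0 ± 2.30. Adcy6 and Pkig overlapped in both stimulated groups.

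**Figure D1:**
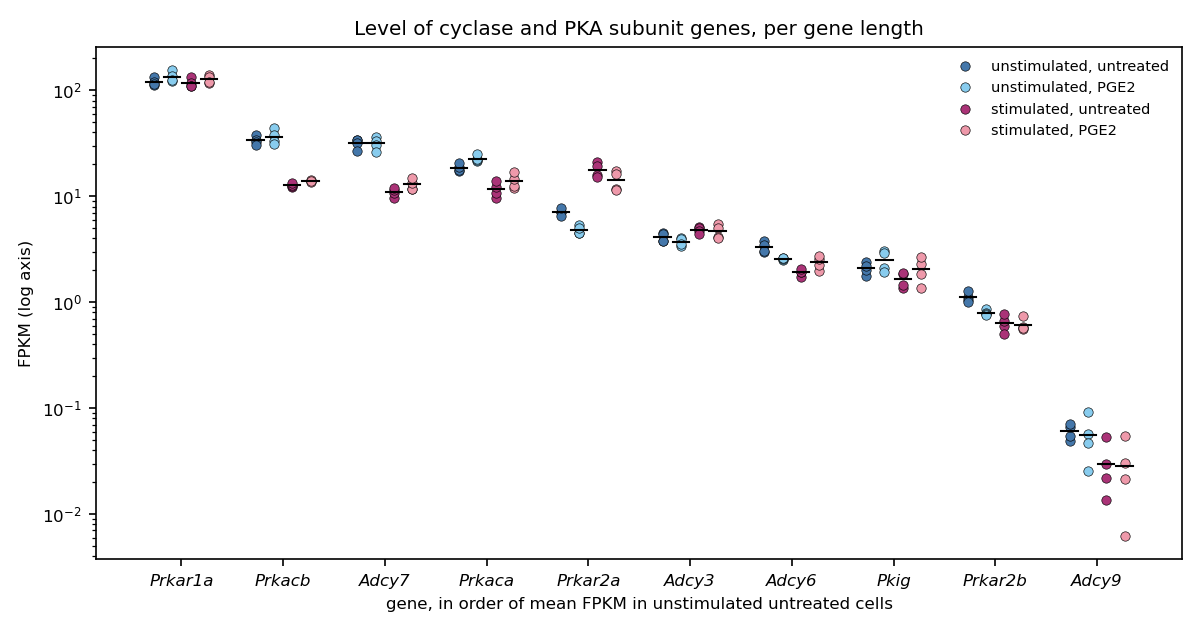
FPKM of each gene (log axis) in each of the 16 libraries, with genes in order of their mean in unstimulated untreated cells, points for libraries, colours for the 4 groups and black lines for group means. Prkar1a lies between 109.6 and 155 FPKM in all libraries and Adcy9 at or below 0.0913, while the points of Prkar2a in stimulated cells stand above those in unstimulated cells and the points of Prkacb, Adcy7 and Prkaca below.

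PGE2 exposure of unstimulated cells lowered Prkar2a, Adcy6 and Prkar2b and raised Prkaca. These were 4 of the 10 genes tested (edgeR's quasi-likelihood test, adjusted p below 0.05), beside 28.4% of all 14505 genes called in this comparison (12.9% higher and 15.5% lower). The same 4 genes were those whose groups did not overlap, beside 28.9% of all genes. None of the 4 reached a 2-fold change, which 3.38% of all genes did. The median log2 fold change was −0.07 over the 10 genes and −0.0010 over all genes. A second fit, here called blocked, gave each replicate number a baseline of its own, since libraries with the same number deviated together from their group means. It called 8 of the 10 genes, 4 higher and 4 lower, beside 47.8% of all genes (23.6% higher and 24.2% lower).

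Among the cyclases, Adcy6, an isoform that calcium inhibits, had 21.2, 27.1, 24.6 and 21.6 CPM in untreated and 17.7, 17.9, 18.5 and 18.5 CPM in PGE2-treated cells (replicates 1 to 4, unstimulated). All treated libraries lay below all untreated ones, and the untreated libraries were the more spread. The log2 fold change was −0.36 (SE 0.0903, adjusted p = 0.0115 in edgeR). Adcy7, at 241, 240.4, 224 and 189 CPM untreated and 254, 230.2, 211 and 185 CPM with PGE2, overlapped fully, with replicate 4 lowest in both groups (log2 fold change −0.0033, SE 0.0978, adjusted p = 0.984 in edgeR). Adcy3, at 29.5, 28.9, 25.0 and 24.9 CPM untreated and 25.9, 25.3, 22.0 and 23.2 CPM with PGE2, was lower with PGE2 in 4 of 4 replicate numbers, but its groups overlapped. Its log2 fold change was −0.15 (SE 0.0784, adjusted p = 0.199 in edgeR, and 0.0407 in the blocked fit). Adcy9 was at the edge of detection, with 6, 9, 13 and 13 counts untreated and 14, 11, 5 and 10 counts with PGE2, and a log2 fold change of −0.18 with an SE of 0.387.

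Both catalytic subunits were higher with PGE2 in 4 of 4 replicate numbers. Prkaca had 44.8, 45.9, 49.3 and 54.4 CPM untreated and 55.7, 56.3, 57.8 and 64.9 CPM with PGE2, and the lowest treated library lay above the highest untreated one. Its log2 fold change was 0.29 (SE 0.0793, adjusted p = 0.0171 in edgeR), though the call was lost when all 16 libraries shared 1 fit (adjusted p = 0.122). Prkacb had 349.9, 316, 299 and 280.5 CPM untreated and 401, 343, 302 and 285 CPM with PGE2, where replicate 1 was highest in both groups and the groups overlapped. The log2 fold change of Prkacb was 0.12 (SE 0.0975, adjusted p = 0.424 in edgeR, and 0.0244 in the blocked fit).

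The regulatory subunits did not move together. Prkar2a, the widely expressed type II regulatory subunit that binds anchoring proteins, fell in all libraries, from 47.5, 47.8, 43.5 and 51.7 CPM to 35.1, 29.9, 29.4 and 33.6 CPM. The groups were apart by more than their own spread, with a log2 fold change of −0.55 (SE 0.0716, adjusted p = 0.000200 in edgeR). Prkar2b, its lowly expressed relative, went from 4.32, 4.00, 3.89 and 4.91 CPM to 3.23, 2.98, 2.89 and 2.90 CPM, again without overlap (log2 fold change −0.49, SE 0.131, adjusted p = 0.0159 in edgeR, and 0.0501 without replicate 4 of the untreated group). Prkar1a, at 609, 544, 516 and 527 CPM untreated and 692, 608, 542 and 564 CPM with PGE2, was higher with PGE2 in 4 of 4 numbers while the groups overlapped. Its log2 fold change of 0.15 (SE 0.0762) passed only in the blocked fit (adjusted p = 0.170 in edgeR, blocked 0.00285). The inhibitor Pkig, at 7.32, 8.39, 10.1 and 9.22 CPM untreated and 8.68, 7.97, 12.5 and 12.1 CPM with PGE2, was higher in 3 of 4 numbers and overlapped (log2 fold change 0.25, SE 0.169, adjusted p = 0.30 in edgeR, and 0.0308 in the blocked fit).

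**Figure D2:**
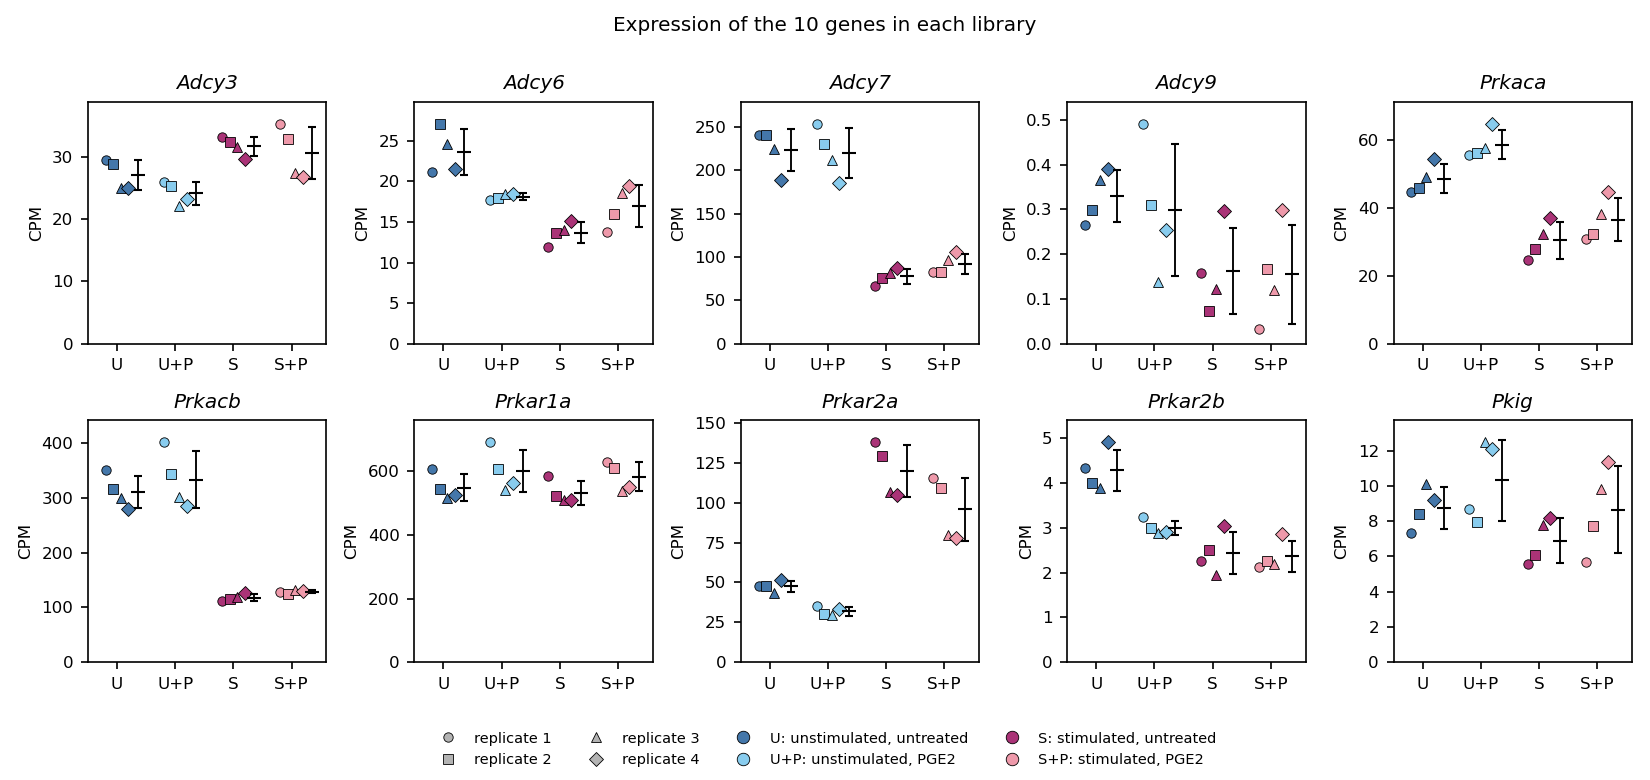
CPM of each gene in each library (linear axes from 0, a scale for each gene), with marker shapes for replicate numbers, colours for groups and, beside the points, mean and SD of 4 replicates. U is unstimulated, S stimulated and P PGE2. Prkar2a, Adcy6 and Prkar2b sit lower and Prkaca higher in U+P than in U without overlap, and Adcy7 and Prkacb drop from U to S.

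In stimulated cells, none of the 9 genes tested passed for PGE2 in the unblocked edgeR fit, beside 9.84% of all 13922 genes. Adcy9, with 1 to 7 counts per stimulated library, was removed by the filter on low counts. At an unadjusted p under 0.05 there were 2 of the 9 genes, Adcy6 and Adcy7, beside 3761 of the 13922 genes. DESeq2 and limma called 0, while over all genes DESeq2 called 2066 and the limma settings 679 to 1038. The blocked fit called 7 of the 9, 6 higher and 1 lower, beside 39.8% of all genes (19.1% higher and 20.7% lower). The groups overlapped for all 9 genes, whereas they did not for 17.9% of all genes. The median log2 fold change of the 9 genes was 0.14, and that of all genes was −0.0061.

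Adcy6 had 11.9, 13.7, 14.1 and 15.1 CPM in stimulated untreated and 13.7, 15.99, 18.6 and 19.5 CPM in stimulated PGE2-treated cells. The groups overlapped through replicate 1 of the treated cells, yet each treated library was above the untreated library of its number (log2 fold change 0.32, SE 0.128, adjusted p = 0.147 in edgeR, and 0.00416 in the blocked fit). Leaving out replicate 1 of the treated group brought the unblocked adjusted p of Adcy6 to 0.0385. Adcy7, with 66.9, 75.1, 81.4 and 87.0 CPM untreated and 82.5, 82.4, 96.3 and 105 CPM with PGE2, behaved likewise (log2 fold change 0.25, SE 0.108, adjusted p = 0.175 in edgeR, blocked 0.00137). Adcy3 spanned 29.7 to 33.2 CPM untreated and 26.8 to 35.3 CPM with PGE2, higher in 2 of 4 numbers and lower in the other 2.

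Catalytic subunits were again higher with PGE2 in 4 of 4 numbers. Prkaca had 24.6, 28.1, 32.3 and 37.0 CPM untreated and 31.0, 32.5, 38.2 and 44.8 CPM with PGE2, a log2 fold change of 0.27 (SE 0.150, adjusted p = 0.267 in edgeR, blocked 0.00195). In this gene the spread between numbers within a group, with number 4 highest in both, was larger than the difference by PGE2. Prkacb had 111, 115, 118 and 126 CPM untreated and 128, 125, 132 and 129 CPM with PGE2 (log2 fold change 0.13, SE 0.0633, adjusted p = 0.209 in edgeR, blocked 0.0311). Its treated libraries were tight, and only the lowest of them fell within the range of the untreated ones.

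Prkar2a, at 138, 129, 107 and 105 CPM untreated and 116, 109, 79.8 and 78.0 CPM with PGE2, was lower in 4 of 4 numbers, with numbers 1 and 2 high in both groups. The log2 fold change was −0.31 (SE 0.145, adjusted p = 0.194 in edgeR, blocked 0.000497). Prkar1a, at 587, 522, 511 and 509 CPM untreated and 631, 612, 538 and 550.0 CPM with PGE2, was higher in 4 of 4 numbers (log2 fold change 0.14, SE 0.0764, adjusted p = 0.267 in edgeR, blocked 0.0309). Pkig, at 5.56, 6.06, 7.79 and 8.15 CPM untreated and 5.68, 7.74, 9.84 and 11.4 CPM with PGE2, was also higher in 4 of 4 numbers, by very little in number 1 (log2 fold change 0.34, SE 0.218, adjusted p = 0.335 in edgeR, blocked 0.0248). Prkar2b remained low, at 1.94 to 3.04 CPM untreated and 2.12 to 2.86 CPM with PGE2, and passed in neither fit (log2 fold change −0.04, SE 0.189, adjusted p = 0.917 in edgeR).

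**Figure D3:**
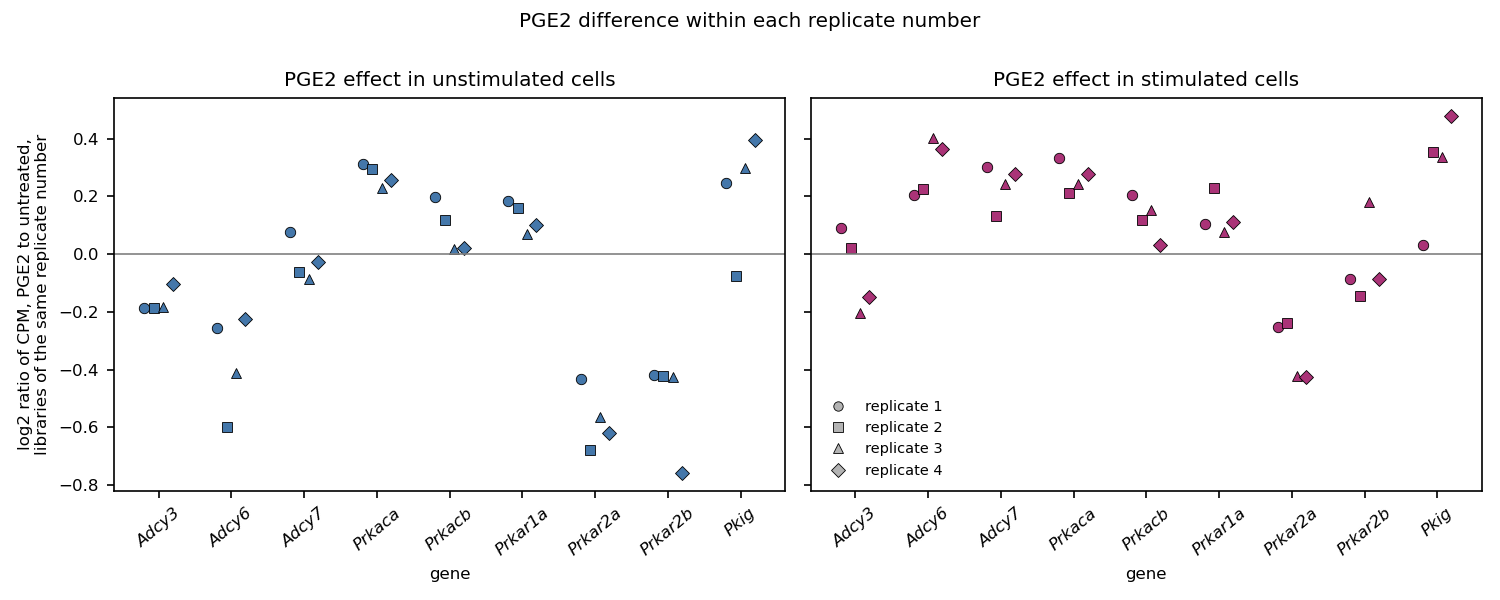
Log2 ratio of CPM, PGE2 to untreated, for libraries of the same replicate number, in unstimulated (left) and stimulated cells (right), with 9 genes on the x axis (Adcy9 is left out for its low counts) and marker shapes for numbers. Prkaca lies above 0 in all 8 ratios (0.21 to 0.33), Prkar2a lies below 0 in all 8 (−0.68 to −0.24), and Adcy6 lies below 0 in unstimulated and above 0 in stimulated cells.

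Whether the PGE2 effect differed between the states was tested over all 16 libraries as an interaction, the effect in stimulated minus that in unstimulated cells. Adcy6 was the 1 gene of 10 that passed, beside 0.749% of all 15096 genes. Its size was under 2-fold, which 0.232% of all genes passed, and the blocked fit also called 1 gene, beside 2.70%. From the values above, its mean went from 23.6 ± 2.80 to 18.1 ± 0.385 CPM with PGE2 in unstimulated cells (SD, n = 4) and from 13.7 ± 1.32 to 16.9 ± 2.60 CPM in stimulated cells. The interaction was 0.69 on the log2 scale (SE 0.156, adjusted p = 0.0479 in edgeR). The p-value lay close to the threshold: it ranged from 0.00214 to 0.187 over 9 other settings, of which 5 called it, and from 0.0162 to 0.145 when any 1 library was left out. The call was kept only without replicate 1 of unstimulated untreated cells or without replicate 1 of stimulated PGE2-treated cells, and was lost without any of the other 14 libraries. Prkar2b had the next largest interaction, 0.47 (SE 0.219, adjusted p = 0.524 in edgeR). Those of Prkaca, Prkacb and Prkar1a lay within 0.03 of 0, with SEs of 0.175, 0.131 and 0.119.

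Stimulation lowered Adcy7, Prkacb and Prkaca and raised Prkar2a and Adcy3, both without and with PGE2. Without PGE2, 8 of 9 genes tested were called, 2 higher and 6 lower, beside 66.5% of all 14205 genes (31.7% higher and 34.8% lower). Adcy7, Prkacb and Prkar2a changed at least 2-fold, beside 23.2% of all genes. The groups did not overlap for 7 of the 9 genes, beside 61.6% of all genes. The median log2 fold change was −0.70 over the 9 genes and −0.03 over all genes. With PGE2, 5 of 9 genes were called, 2 higher and 3 lower, beside 64.2% of all 14507 genes (32.5% higher and 31.7% lower). The same 3 genes passed 2-fold, beside 22.1% of all genes, and 6 genes had groups that did not overlap, beside 60.2%. There the medians were −0.25 for the 9 genes and 0.0022 for all genes. Upper-quartile scaling moved the median of all genes to −0.13 in both comparisons, and the calls then split into 1 higher and 7 lower without PGE2 and 1 higher and 4 lower with PGE2. Over all genes this scaling called 3973 higher and 5569 lower without PGE2, and 3921 higher and 5465 lower with PGE2. The blocked fit called as many of the 9 genes, 8 without PGE2 and 5 with PGE2, beside 72.3% and 67.5% of all genes. The comparisons share groups with each other and with those by PGE2, so their values are set side by side and are not independent.

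Of the cyclases, Adcy7 fell most. Its 4 stimulated untreated libraries, at 66.9 to 87.0 CPM, lay far under the unstimulated ones at 188.6 to 241 CPM, and the log2 fold change was −1.54 (SE 0.0957, adjusted p = 4.95e-08 in edgeR). In PGE2-treated cells the fall was −1.25 (SE 0.105, adjusted p = 3.51e-06 in edgeR). Adcy6 fell without PGE2 (log2 fold change −0.81, SE 0.105, adjusted p = 2.11e-05 in edgeR). With PGE2 its log2 fold change was −0.09 (SE 0.107, adjusted p = 0.491 in edgeR), and the stimulated libraries overlapped the unstimulated ones. Adcy3 was the cyclase that rose, by a log2 fold change of 0.22 without PGE2 (SE 0.0844, adjusted p = 0.0377 in edgeR) and of 0.36 with PGE2 (SE 0.110, adjusted p = 0.0139 in edgeR). Its rise was small: upper-quartile scaling ended both calls (adjusted p = 0.176 and 0.0502), and so did leaving out replicate 3 or 4 of unstimulated untreated or replicate 1, 2 or 3 of stimulated untreated cells in the former comparison, and replicate 3 of unstimulated or replicate 2 of stimulated PGE2-treated cells in the latter. Adcy9 had 6 to 13 counts in unstimulated and 2 to 7 counts in stimulated untreated libraries, and was not tested.

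Both catalytic subunits fell. Prkacb went from 311 ± 29.5 to 117.7 ± 6.59 CPM without PGE2 (SD, n = 4), which is −1.42 on the log2 scale (SE 0.0772, adjusted p = 2.43e-08 in edgeR), and from 333 ± 51.7 to 128.4 ± 2.88 CPM with PGE2, a log2 fold change of −1.36 (SE 0.0951, adjusted p = 1.65e-06 in edgeR). The stimulated libraries of Prkacb reached at most 131.6 CPM and the unstimulated ones at least 280.5 CPM. Prkaca fell by less, with a log2 fold change of −0.70 without PGE2 (SE 0.111, adjusted p = 0.000117 in edgeR) and of −0.67 with PGE2 (SE 0.111, adjusted p = 0.000325 in edgeR), and its groups did not overlap in either comparison.

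Prkar2a moved the opposite way and rose 2.49-fold without PGE2, from 47.6 ± 3.33 to 119.6 ± 16.4 CPM (log2 fold change 1.32, SE 0.103, adjusted p = 2.64e-07 in edgeR). With PGE2 it rose 3.03-fold, from 32.0 ± 2.80 to 95.7 ± 19.6 CPM (log2 fold change 1.60, SE 0.142, adjusted p = 4.71e-06 in edgeR). The lowest stimulated library, at 78.0 CPM, stood above the highest unstimulated one, at 51.7 CPM. Prkar2b fell without PGE2 (log2 fold change −0.83, SE 0.170, adjusted p = 0.000826 in edgeR). With PGE2 its groups did not overlap either, but the log2 fold change of −0.34 (SE 0.152) gave an edgeR adjusted p of 0.0735, which became 0.0388 without replicate 4 of stimulated PGE2-treated cells and 0.0293 with upper-quartile scaling.

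Prkar1a, the most abundant subunit, did not pass in either comparison, with log2 fold changes of −0.06 (SE 0.0814, adjusted p = 0.554 in edgeR) without and −0.03 (SE 0.0889, adjusted p = 0.796 in edgeR) with PGE2. Upper-quartile scaling gave it −0.15 without PGE2 (adjusted p = 0.0498). The inhibitor Pkig fell without PGE2 by a log2 fold change of −0.38 (SE 0.151, adjusted p = 0.0424 in edgeR), although the groups overlapped. That call held in 4 of 10 other settings and was lost without replicate 2, 3 or 4 of unstimulated or replicate 1 or 2 of stimulated untreated cells. With PGE2 the log2 fold change of Pkig was −0.25 (SE 0.218, adjusted p = 0.335 in edgeR).

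**Figure D4:**
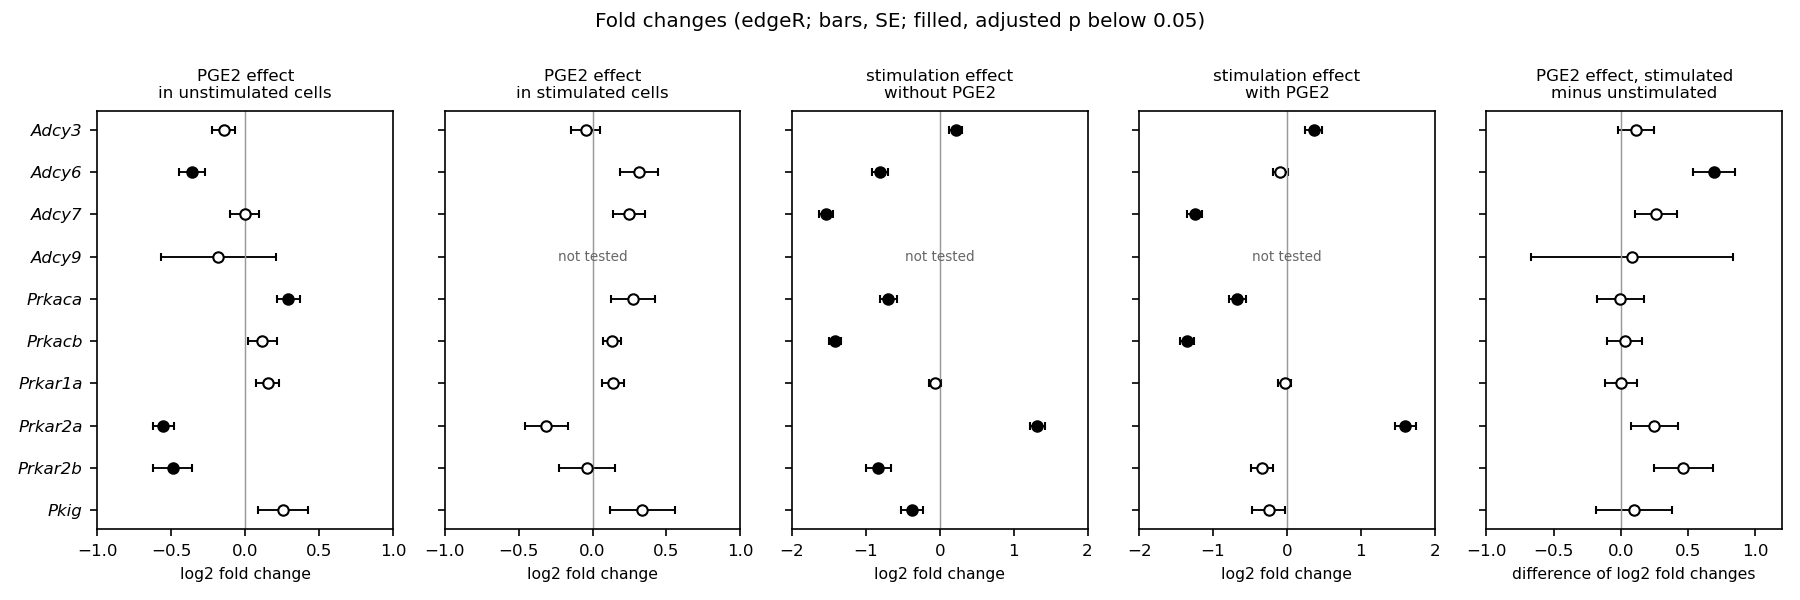
Log2 fold changes from edgeR with their SE for the 10 genes, for PGE2 in both states, for stimulation without and with PGE2, and for the interaction. Filled points passed an adjusted p of 0.05, and the x axes differ between panels. Prkar2a lies left of 0 for PGE2 and right of 0 for stimulation, and Adcy6 is the only filled point of the interaction panel.

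The balance between subunits was described per library from summed FPKM, without a test. Regulatory transcripts exceeded catalytic ones 2.58, 2.47, 2.36 and 2.44 times in unstimulated untreated libraries and 2.44, 2.37, 2.27 and 2.33 times with PGE2. In stimulated cells the ratio was 7.02, 5.81, 5.12 and 4.61 untreated and 6.09, 5.84, 4.54 and 4.28 with PGE2. All stimulated libraries thus had a higher ratio than all unstimulated ones, while the groups by PGE2 overlapped in both states. Within replicate numbers, the ratio was lower with PGE2 in 4 of 4 unstimulated and 3 of 4 stimulated pairs. The sum of the catalytic subunits differed between the states, at 52.3 and 59.3 FPKM in unstimulated and 24.4 and 27.8 FPKM in stimulated cells (means, untreated and PGE2). Group means of the regulatory sum lay between 129 and 143 FPKM, and single libraries between 120.5 and 160.7 FPKM. Stimulated libraries of numbers 1 and 2 had higher ratios than those of numbers 3 and 4. FPKM rests on the gene length that the authors used, and with summed counts the mean ratios were 1.67, 1.63, 4.45 and 4.15 in the order of groups above.

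Within each class the shares shifted too. Prkar2a made up 5.52 ± 0.499% of the regulatory transcripts in unstimulated untreated cells, 3.47 ± 0.286% with PGE2, 13.1 ± 1.02% in stimulated untreated cells and 9.89 ± 1.16% in stimulated cells with PGE2, and none of these 4 ranges overlapped. Prkar1a made up the rest apart from at most 1.02% for Prkar2b. Prkacb held 64.4 ± 4.05% of the catalytic transcripts in unstimulated untreated cells and 52.5 ± 3.05% in stimulated untreated cells. Adcy7 held 80.8 ± 1.06% of the transcripts of the 4 cyclases in unstimulated untreated cells and 61.7 ± 2.76% in stimulated untreated cells, where the share of Adcy3 was 27.3 ± 3.12% instead of 10.6 ± 0.664%.

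**Figure D5:**
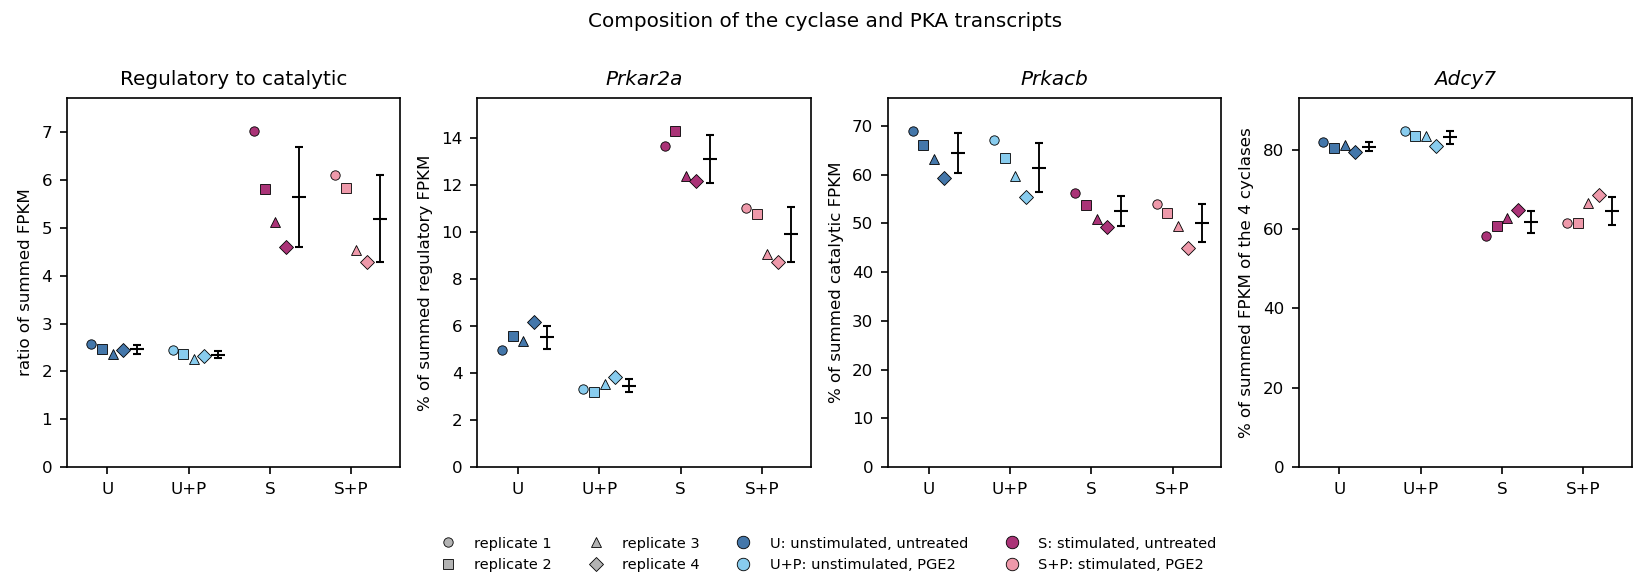
Ratio of summed regulatory to summed catalytic FPKM, and the shares of Prkar2a, Prkacb and Adcy7 in their classes in percent, for each library with group mean and SD (n = 4). The ratio is 2.27 to 2.58 in unstimulated and 4.28 to 7.02 in stimulated libraries.

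Of 10 further genes of the same families, Adcy2, Adcy8 and Pkia had 0 counts in all 16 libraries, and Adcy1, Adcy4, Adcy5, Adcy10, Prkar1b and Pkib had at most 0.364 FPKM in any. Prkx, a kinase close to the PKA catalytic subunits, was expressed at 5.60 to 8.79 FPKM. It rose with PGE2 in unstimulated cells, from 36.4 ± 1.82 to 46.8 ± 4.36 CPM (log2 fold change 0.38, SE 0.0666, adjusted p = 0.00130 in edgeR), and had a log2 fold change of 0.07 (adjusted p = 0.586) in stimulated cells. Prkx was the only 1 of 4 tested genes of this list called for PGE2 in unstimulated cells, beside 28.4% of all genes. Of the 4 tested in stimulated cells 0 were called, beside 9.84% of all genes. The blocked fit called 1 there, beside 39.8% of all genes, and this was not Prkx (blocked adjusted p = 0.281). The 4 tested genes were not the same in both states, and their median log2 fold changes were −0.49 and −0.23. Besides Prkx, those tested in unstimulated cells were Adcy5, Prkar1b and Adcy4, with group means of only 0.245 to 0.739 CPM. Their log2 fold changes had SEs of 0.288 to 0.544 and none was called, so the medians give no direction for the list. With stimulation, 1 of 4 tested rose and 0 fell both without and with PGE2, or 1 rose and 2 fell with PGE2 under upper-quartile scaling. Stimulation called 66.5% of all genes without PGE2 and 64.2% with PGE2.

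The other steps of the pathway were described from lists of named genes, to be read against the shares of all genes called for PGE2: 12.9% higher and 15.5% lower in unstimulated cells and 9.84% in either direction in stimulated cells, or 47.8% and 39.8% in the blocked fit. Of 23 genes for G protein subunits and chaperones, 5 of 18 tested rose and 0 fell with PGE2 in unstimulated cells, and 2 of 16 rose in stimulated cells, or 4 in the blocked fit (median log2 fold changes 0.08 and 0.04). In the unblocked fit the total called was near the share of all genes in both states. The blocked fit called 6 of 18 in unstimulated and 4 of 16 in stimulated cells, all higher, which are lower shares than the 47.8% and 39.8% of all genes. Gng4, a gamma subunit, rose most, from 1.22 ± 0.591 to 7.88 ± 0.402 CPM in unstimulated cells (log2 fold change 2.66, SE 0.264, adjusted p = 3.50e-05 in edgeR) and from 1.66 ± 0.873 to 7.16 ± 0.976 CPM in stimulated cells (log2 fold change 2.15, SE 0.319, adjusted p = 0.00306). Gnal, an alpha subunit of the stimulatory class, rose in both states (log2 fold changes 0.40 and 0.63, adjusted p = 0.00421 and 0.0407). Gnb4, a beta subunit, rose in unstimulated cells (log2 fold change 0.67, adjusted p = 0.00179) and had a log2 fold change of 0.63 in stimulated cells that passed only in the blocked fit (adjusted p = 0.0746, blocked 0.000767). With stimulation, 4 genes of this list rose and 8 of 17 fell without PGE2, which became 2 and 8 with upper-quartile scaling. With PGE2, 4 rose and 9 of 18 fell, which became 2 and 11. These counts stand beside 66.5% of all genes called for stimulation without PGE2 and 64.2% with PGE2.

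Of 25 AKAP genes, 4 of 16 tested rose and 2 fell with PGE2 in unstimulated cells, and 1 rose in stimulated cells, where the blocked fit called 5 higher and 1 lower (median log2 fold changes 0.09 and 0.06), beside 28.4%, 9.84% and 39.8% of all genes. Akap1, which anchors PKA at mitochondria, fell from 24.2 ± 2.89 to 8.73 ± 1.16 CPM in unstimulated cells (log2 fold change −1.44, SE 0.117, adjusted p = 1.06e-05 in edgeR). In stimulated cells it had 85.1 ± 12.7 CPM untreated and 74.4 ± 23.8 CPM with PGE2 (log2 fold change −0.19, adjusted p = 0.584), and its interaction of 1.27 passed (SE 0.258, adjusted p = 0.0271). Akap1 rose 3.50-fold with stimulation without PGE2 and 8.62-fold with PGE2 (adjusted p = 8.43e-08 and 2.02e-06). Akap9, an anchor at the Golgi and centrosome, rose with PGE2 in unstimulated cells from 93.9 ± 3.70 to 122.9 ± 3.03 CPM (log2 fold change 0.41, adjusted p = 0.000144), and its log2 fold change of 0.25 in stimulated cells passed in the blocked fit (adjusted p = 0.0644, blocked 0.000833). Akap13 rose with PGE2 in stimulated cells, from 376 ± 15.6 to 495 ± 11.5 CPM (log2 fold change 0.40, adjusted p = 0.00353), and its log2 fold change of 0.23 in unstimulated cells passed in the blocked fit (adjusted p = 0.178, blocked 0.000299). With stimulation without PGE2, 3 AKAP genes rose and 8 fell, and with PGE2, 4 rose and 8 fell (median log2 fold change −0.32 in both). The shares of all genes called were 66.5% without and 64.2% with PGE2.

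Of 10 other cAMP sensors and partners of PKA or cyclases, 2 of 7 tested rose and 1 fell with PGE2 in unstimulated cells, and 1 rose and 1 fell in stimulated cells, against 2 and 3 and then 2 and 2 in the blocked fit, numbers too small to set apart from the 28.4% and 9.84% of all genes called, or 47.8% and 39.8% in the blocked fit. Rapgef3, which encodes the cAMP-activated exchange factor EPAC1, rose in both states, from 1.82 ± 0.295 to 5.09 ± 1.45 CPM (2.83-fold, SE of the log2 value 0.230, adjusted p = 0.000605 in edgeR) and from 0.359 ± 0.117 to 1.12 ± 0.242 CPM (log2 fold change 1.64, SE 0.299, adjusted p = 0.00844). Its stimulated libraries were low, at 0.220 to 0.507 CPM untreated and 0.773 to 1.34 CPM with PGE2, so fold changes that involve them rest on few counts. Csk, the target of PKA named above, fell in unstimulated cells from 293 ± 20.2 to 234 ± 8.57 CPM (log2 fold change −0.30, adjusted p = 0.00414) and had a log2 fold change of −0.11 in stimulated cells (adjusted p = 0.258). Pja2, a ubiquitin ligase of PKA regulatory subunits, rose in unstimulated cells (log2 fold change 0.24, adjusted p = 0.0199), and its log2 fold change of 0.22 in stimulated cells passed in the blocked fit (adjusted p = 0.170, blocked 0.0116). With stimulation, 0 genes of this list rose and 6 fell without PGE2, beside 66.5% of all genes called. With PGE2, 1 rose and 4 fell, beside 64.2%. Rapgef3 was among the genes that fell, with log2 fold changes of −2.37 without PGE2 (adjusted p = 7.83e-06) and −2.19 with PGE2 (adjusted p = 2.91e-05).

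Of 16 cAMP phosphodiesterase genes, 4 of 10 tested rose and 1 fell with PGE2 in unstimulated cells, and 4 of 9 rose and 0 fell in stimulated cells. The blocked fit called 6 higher and 2 lower in unstimulated cells. Of all genes, 28.4% and 9.84% were called in these states, and 47.8% in the blocked fit of unstimulated cells. The median log2 fold changes were 0.35 and 0.25, beside −0.0010 and −0.0061 over all genes. Pde4b rose from 64.6 ± 5.01 to 87.3 ± 9.43 CPM in unstimulated cells (log2 fold change 0.45, SE 0.0778, adjusted p = 0.00124 in edgeR) and from 29.0 ± 3.46 to 57.1 ± 3.67 CPM in stimulated cells (log2 fold change 0.98, SE 0.0955, adjusted p = 0.000350). Pde4d rose by log2 fold changes of 0.52 and 1.04 (adjusted p = 0.000829 and 0.00152) and Pde8a by 1.00 and 0.95 (adjusted p = 0.000910 and 0.000822). Stimulation lowered 6 of 9 tested phosphodiesterase genes without PGE2 and raised 0, and with PGE2 it lowered 6 of 10 and raised 2. Without PGE2, 66.5% of all genes were called (31.7% higher and 34.8% lower), and with PGE2 64.2% (32.5% higher and 31.7% lower).

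The genes whose level was most like that of a member over the 16 libraries were found by Pearson correlation of log2 CPM among the 8869 genes whose mean reached 10 CPM. The libraries fall into stimulated and unstimulated ones, so r of Prkar2a and Prkacb mainly reflects that difference. This holds less for Adcy6, whose unstimulated and stimulated groups overlapped with PGE2 (means of 18.1 and 16.9 CPM). All r are given as a description. Prkar2a was most like Hspa4, Krr1, Lzic, Sdad1 and Pwp1, with r of 0.998 for each. Prkacb was most like Il17ra, Cnp, Lbr, Stim1 and Slc25a45 (r from 0.993 to 0.996). Adcy6 was most like Cacnb3, Srbd1, Poli, Rbm43 and Rbmx, with lower r (from 0.891 to 0.922).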

How the data were processed

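RNA-seq of 16 libraries was analysed from tables that the authors deposited. Per the labels and the study's methods, poly(A)-selected NEBNext libraries were sequenced in paired-end mode on a NovaSeq instrument, and the submitters' processing notes name HISAT2 2.0.5, featureCounts 1.5.0-p3, DESeq2 1.20.0 and the build GRCm38 (mm10). The deposited counts are whole reads per gene without normalization. The FPKM values deposited by the authors equal these counts divided by gene length and library total, times 1 factor per sample. The annotation release, counting options and use of strand are not given in the sources used here. Coordinates and exons came from GENCODE M21 (54409 of 54532 identifiers matched), promoters from RefSeq.

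Counts were analysed with edgeR 4.0.16 in R 4.3.3: low counts were removed by filterByExpr (minimum count 10), libraries were scaled by TMM, and the two-sided quasi-likelihood test of glmQLFit and glmQLFTest was adjusted by Benjamini-Hochberg over all genes tested, with calls at an adjusted p below 0.05. Pairwise fits held the 8 libraries compared without covariates, and the interaction all 16. CPM used TMM factors over all 16 libraries. Scripts were tested on simulated counts. Depth was 22678254 to 42950763 counts, and spread between replicates exceeded counting noise in every pair, so no library was counted as a repeat of another.

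The 10 genes, the other gene lists, the marker lists and the tests were chosen with earlier results of these data known. Named are all 10 genes, at most 3 genes per other list with the lowest adjusted p among those called in either PGE2 comparison, and 5 genes most like each of 3 members (the pair with the lowest adjusted p for PGE2 in unstimulated cells and the 1 with the lowest for stimulation without PGE2). Gene groups were described by counts and medians, without set tests.

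Replicate numbers are from the labels, which do not say what same-numbered libraries share. The correlations of their deviations from the group means were 0.137 to 0.444 for PGE2 in unstimulated cells, 0.190 to 0.423 for PGE2 in stimulated cells and 0.112 to 0.359 for stimulation without PGE2, all over 0.1, so the blocked value is given there where it changes a call. They were 0.0439 to 0.281 for stimulation with PGE2. Alternatives were RLE and upper-quartile factors, DESeq2 1.42.0, no filter or a minimum of 10 counts per sample, limma 3.58.1 (mean-variance trend, mean FPKM of at least 1) on log2(FPKM + 1), also unfiltered, or on log2(FPKM + 0.1), the replicate block, 1 fit of all 16 libraries, a 2-fold threshold, and leaving out each replicate.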

Additional observations from a re-analysis of the deposited data

Results flagged for a closer look

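In stimulated untreated cells, the Prkar1a level of replicate 1 (587 CPM) stood apart from the other 3 libraries (509 to 522 CPM). The gap to the nearest library was 0.834 of the whole range of the group. It was the only 1 of 40 groups of 4 that passed Dixon's 95% value, which chance passes in about 1 of 20 groups, and Prkar1a replicate 1 was also the highest library of the other 3 groups.

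The effect of PGE2 on Adcy6 differed between the states, with an interaction of 0.69 on the log2 scale (adjusted p = 0.0479 in edgeR). The call was fragile: it held in 5 of 9 other settings and in 2 of 16 fits that left out 1 library. Adcy6 was lower with PGE2 in 4 of 4 replicate numbers of unstimulated cells and higher in 4 of 4 of stimulated cells.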

How the results depend on the processing

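For PGE2 in unstimulated cells, 4 of 10 genes were called in the analysis as reported, beside 28.4% of all genes. Limma on log2(FPKM + 1) without a filter called 2, the replicate block 8, the 2-fold threshold 0, and leaving out 1 library 3 to 4. Over all genes these settings called, in the same order, 3064 genes, 47.8%, 3.38% and 3154 to 4133 genes. For PGE2 in stimulated cells, the replicate block raised the count from 0 to 7, and leaving out 1 library gave 0 to 1. The share of all genes called there rose with the block from 9.84% to 39.8%. Leaving out 1 library gave 630 to 1854 calls over all genes. The 2-fold threshold left 3 genes for stimulation without PGE2 and 3 with PGE2, beside 23.2% and 22.1% of all genes. Leaving out 1 library gave 6 to 8 and 4 to 6 there, beside 8899 to 9488 and 8534 to 9431 of all genes. The interaction count of 1 became 0 with upper-quartile factors, with each of the 3 limma settings and with the 2-fold threshold, and was 0 to 1 when 1 library was left out. In the same order, the interaction calls over all genes were 129, 37 to 53, 35 and 44 to 217. The block kept the count at 8 for stimulation without PGE2, beside 72.3% of all genes. For stimulation with PGE2, where the correlations of same-numbered libraries were 0.0439 to 0.281, it kept the count at 5, beside 67.5% of all genes. For the interaction, which holds all 4 groups, it kept the count at 1 and moved the adjusted p of the Adcy6 interaction to 0.00908. Over all genes the block raised the calls for the interaction from 113 to 408. With summed counts in place of FPKM, the ratio of regulatory to catalytic transcripts moved to 1.67, 1.63, 4.45 and 4.15. Signs turned only in values near 0: Adcy7 for PGE2 in unstimulated cells (0.0081 with RLE factors, 0.0089 with upper-quartile factors, 0.0085 with DESeq2), and the interactions of Prkacb (−0.0028 without a filter) and Prkar1a (0.0032 with 10 counts in every sample, 0.0018 with the block). Leaving out 1 library turned the log2 fold changes of Adcy7 (−0.077 to 0.068) and Adcy9 (−0.48 to 0.053) for PGE2 in unstimulated cells, of Adcy3 (−0.12 to 0.014) and Prkar2b (−0.14 to 0.084) for PGE2 in stimulated cells, of Prkar1a for stimulation with PGE2 (−0.12 to 0.012), and the interactions of Adcy9 (−0.42 to 0.46), Prkaca (−0.12 to 0.10), Prkacb (−0.050 to 0.12), Prkar1a (−0.057 to 0.063) and Pkig (−0.062 to 0.26). The causes were not tested. Depth limits Adcy9 most, with 1 to 14 counts per library, and then Prkar2b, with 48 to 163 counts.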
